A study of Mus musculus with 2 samples.

Results

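The genes described here are 10 feedback inhibitors of receptor tyrosine kinase and MAP kinase signaling, listed by symbol as Dusp1, Dusp2, Dusp4, Dusp5, Dusp6, Dusp10, Spry1, Spry2, Spry4 and Spred1, and all 10 were found among the 49492 genes of the deposited count table. They were read in 2 RNA-seq libraries of colonies grown from wild-type mouse mammary basal cells. These cells were sorted by FACS from the glands of adult females and grown for 10 days in 3D matrix gel. By FACS, the study found mostly luminal cells in the control colonies of its macrophage co-culture experiment. It also reports a higher proportion of basal cells in colonies with TNF-α, so the values below are not those of basal cells alone. One library came from cells kept in medium without added cytokine (control) and the other from cells kept with recombinant mouse TNF-α at 10 ng/mL. Per the study's methods, the culture medium of every colony held EGF, the ligand of the receptor at the head of the ERK pathway, so the control is not a culture without growth factor. There was 1 library for each condition, so no value below has a replicate to check it.

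ERK, JNK and p38 are MAP kinases that are switched on by phosphorylation of a threonine and a tyrosine. The dual specificity phosphatases (DUSPs) remove both phosphates, and several of their genes are themselves induced by ERK, which closes a negative feedback loop. Sprouty and Spred proteins act higher up, between the receptor, RAS and RAF, and their transcripts are also induced by growth factor signaling. In epithelia their amount is widely read as a trace of recent ERK activity, although a transcript level is not a measurement of kinase phosphorylation. The study did blot phosphorylated ERK in organoids. It reports that TNF-α activated PI3K signaling by way of AKT and ERK, and that a PI3K inhibitor lowered the phosphorylation of both. The transcript values below do not measure that phosphorylation.

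The control library held 44462275 counts and the TNF-α library 53487087. Counts were put on a common scale with edgeR's TMM method, and values are given as CPM (a count relative to the scaled size of its library) or as a log2 ratio, with the TNF-α level over the control level. A ratio was computed wherever both libraries together gave 10 counts or more. These 20771 genes, called compared genes below, included 9 of the 10 feedback genes. The intervals are exact 95% intervals for counting error only. They treat each read as its own molecule, which PCR copies are not, and they say nothing of the spread between cultures. Even counts were in excess, the pattern of read pairs counted once per end, and for such counts the intervals are too narrow. The treatment label was set beside 10 NF-κB feedback genes. This list was chosen with earlier results of these data known, so it is no independent check of the label. Of the 10 genes, 8 passed 2-fold upwards in the TNF-α library (median log2 ratio 1.46). They were Nfkbie at 2.64, Tnfaip3, Nfkbia, Birc3, Relb, Tnip1, Nfkb2 and Traf1, and Nfkb1 was the lowest of the 10 at 0.08. The 10 basal cell markers were all present, at a summed 12303 CPM in the control and 11638 CPM with TNF-α, a log2 ratio of -0.08. The log2 ratios of the single genes had a median of 0.10. They ranged from -1.20 for Lgr5, the 1 past 2-fold, to 0.44 for Procr, with the keratins Krt5 and Krt14 at 0.16 and -0.08 and the contractile genes Myh11 and Acta2 at -0.52 and -0.20. A list of 10 luminal cell markers was also present, at a summed 3652 CPM in the control and 2568 CPM with TNF-α, and all 10 had log2 ratios below 0, from -0.10 for Krt8 to -2.37 for Areg, with Esr1, Pgr and Prlr also more than 2-fold lower. For comparison, of all genes with at least 200 counts over both libraries, 2.87% were more than 2-fold lower and 4.01% more than 2-fold higher. The 12 leukocyte markers summed to 8.66 and 6.80 CPM, with Cd3e at 0 in both libraries and log2 ratios from -0.60 for Cd79a to 0.27 for Ptprc. The 8 fibroblast markers summed to 542 and 545 CPM but did not move alike, from -0.93 for Pdgfrb to 4.58 for Dpt, which had 20 and 622 counts. The 6 endothelial markers summed to 8.19 and 7.70 CPM, with log2 ratios from -0.30 for Kdr to 0.22 for Cdh5. In bulk RNA fewer cells of a type and less RNA per cell cannot be told apart, and the part of these marker differences in the values below was not tested.

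In the presence of TNF-α, 8 of the 9 compared feedback genes had log2 ratios between -0.29 and 0.04, and Dusp1 was higher. None of the 9 compared genes was more than 2-fold higher and none was more than 2-fold lower, where 8.56% of all compared genes were more than 2-fold higher and 6.62% more than 2-fold lower. All 9 had more than 200 counts over both libraries, and among the 13609 genes with at least 200 counts these shares were 4.01% and 2.87%, so a count of 0 among 9 genes is near this background and is not a result about these genes. The median log2 ratio of the 9 genes was -0.17, against 0.0038 for all compared genes, and 7 of the 9 were below 0. Dusp1 was the highest at 0.66 and Spry1 the lowest at -0.29.

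**Figure D1:**
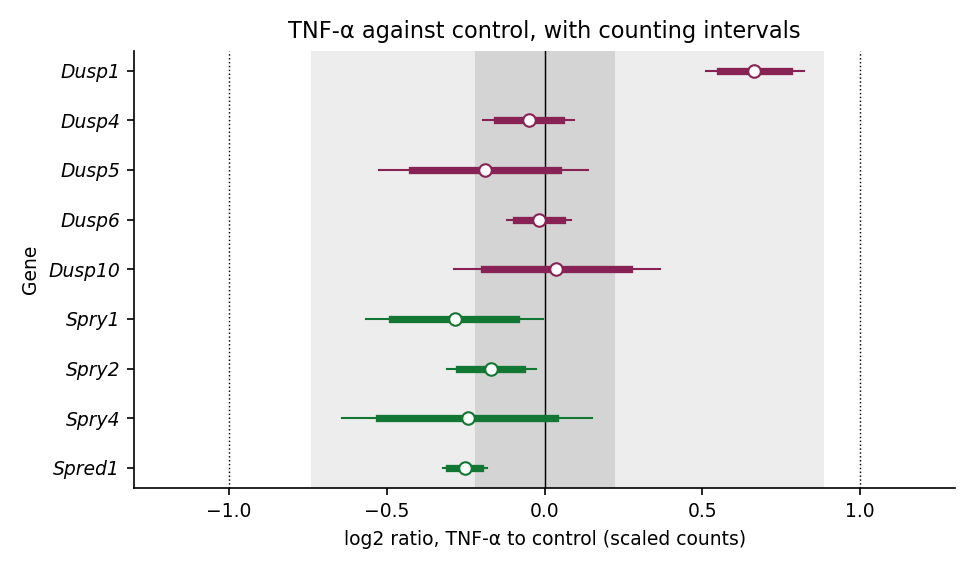
Log2 ratios of TNF-α over control (x axis) for the 9 compared feedback genes (y axis), with phosphatases in purple and Sproutys and Spred1 in green. Thick bars are 95% intervals for counting error, thin bars the same with all counts halved, the dark and light grey bands hold the middle 50% and 90% of genes with at least 200 counts, and dotted lines mark 2-fold. Dusp1 sits at 0.66, apart from the others, which lie between -0.29 and 0.04.

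The nuclear, rapidly inducible phosphatases are Dusp1, Dusp2, Dusp4 and Dusp5. Dusp1 (MKP-1), which acts on p38 and JNK as well as ERK, lies on chromosome 17 of GRCm38 from 26505590 to 26508519 on the minus strand, with a summed exon length of 2697 bases in 2 separate exon blocks. It had 1041 counts in the control library and 1975 with TNF-α, or 23.4 and 37.0 CPM. This is a fold of 1.58 (95% interval 1.47 to 1.71), a log2 ratio of 0.66 (0.56 to 0.77), higher than in 92.3% of genes with at least 200 counts. Dusp1 was thus the 1 feedback gene past 1.5-fold higher, a threshold passed by 15.5% of all compared genes, and 0 were past 1.5-fold lower, where the share was 13.7%. Among the counts of the 6 phosphatase genes, Dusp1 made up 17.4% in the control (95% Wilson interval 16.5 to 18.4) and 25.5% with TNF-α (24.6 to 26.5).

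Dusp1 had the highest log2 ratio of the compared feedback genes. The sequence before its start site is shown beside those of Dusp6 and Dusp10, the ones nearest to a log2 ratio of 0, and of Dusp5. The choice of Dusp1 and Dusp5 was made after values and motifs were seen. The sequences are RefSeq's on GRCm38.p6, from 250 bases before the start site up to that site or to the first base that the count table assigns to an exon of the gene, and are written 5′ to 3′ on the gene's strand. The window of Dusp1 is chr17:26508520-26508722 (minus strand), that of Dusp6 is chr10:99262981-99263230 (plus strand), that of Dusp10 is chr1:184034131-184034380 (plus strand) and that of Dusp5 is chr19:53528895-53529108 (plus strand). The Dusp10 window lies between exons inside the table's gene model, which begins further upstream, and the other windows lie outside their gene models. Capitals mark matches to the cAMP response element TGACGTCA (CRE) and its shorter form TGACG, which the longer one contains, to the AP-1 site TGANTCA, the ETS core CCGGAA, the TATA box TATAAA, the CArG box bound by serum response factor and the κB site, searched on both strands.
Dusp1: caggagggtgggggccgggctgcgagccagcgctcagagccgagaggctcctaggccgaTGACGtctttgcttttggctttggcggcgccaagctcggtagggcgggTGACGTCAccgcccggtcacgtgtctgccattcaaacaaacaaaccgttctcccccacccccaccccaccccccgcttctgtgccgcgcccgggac
Dusp6: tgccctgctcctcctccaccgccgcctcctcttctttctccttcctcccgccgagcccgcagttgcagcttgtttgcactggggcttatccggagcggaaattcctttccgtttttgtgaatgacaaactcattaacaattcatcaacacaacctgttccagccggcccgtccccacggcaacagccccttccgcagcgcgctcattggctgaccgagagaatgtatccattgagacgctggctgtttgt
Dusp10: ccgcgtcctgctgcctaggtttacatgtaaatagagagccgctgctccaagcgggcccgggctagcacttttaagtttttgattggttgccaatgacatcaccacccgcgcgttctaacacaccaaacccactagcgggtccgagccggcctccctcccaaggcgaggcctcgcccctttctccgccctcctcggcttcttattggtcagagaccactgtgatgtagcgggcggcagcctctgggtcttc
Dusp5: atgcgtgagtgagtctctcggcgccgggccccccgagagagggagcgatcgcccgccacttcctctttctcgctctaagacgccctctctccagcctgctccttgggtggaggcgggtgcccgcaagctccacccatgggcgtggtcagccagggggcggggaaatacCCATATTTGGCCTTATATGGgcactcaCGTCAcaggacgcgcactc

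The Dusp1 sequence held 1 full CRE, at positions -143 to -136 counted from the start site, and a further TGACG at -191 to -187. Over the whole RefSeq window, which also takes in the first bases after the start site, a full CRE was found in 1.79% of 32851 promoters and TGACG in 20.8%. Of the 8 feedback genes with an entry in that table, Dusp1 alone held a full CRE, and Dusp1, Dusp2 and Dusp5 held TGACG. Dusp5 held 2 adjacent CArG boxes, at -82 to -73 and -72 to -63, and 1.63% of all promoters held at least 1. The ETS core was found in Spry2 only, and in 14.9% of all promoters. The AP-1 site, the TATA box and the κB site were found in none of the 8 windows, and in 7.81%, 13.6% and 8.46% of all promoters. For the κB site this holds only for the pattern searched, and looser forms of the site were not tested. The GC box GGGCGG, which was searched but is not capitalized, was found in 6 of the 8 and in 35.7% of all promoters. These matches describe letters only, and binding was not measured. Dusp4 and Spry4 had no entry.

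Dusp4 (MKP-2), another nuclear phosphatase of ERK and JNK, lies on chromosome 8 (34807297 to 34819894). It had 1464 counts in the control and 1693 with TNF-α, or 32.8 and 31.7 CPM, a log2 ratio of -0.05 whose interval from -0.15 to 0.05 holds 0. Dusp5, a nuclear phosphatase specific for ERK, lies on chromosome 19 (53529109 to 53542431) and had 303 and 318 counts, or 6.80 and 5.96 CPM. Its log2 ratio was -0.19 (95% interval -0.42 to 0.04), so neither gene, in contrast to Dusp1, differed beyond counting error.

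Dusp2 (PAC-1), a nuclear phosphatase known best from activated leukocytes, was close to undetected. It lies on chromosome 2 (127336159 to 127338376) and had 6 counts in the control library and 0 with TNF-α, under the minimum of 10. A count of 0 allows up to 3 counts, or 0.0562 CPM, in the TNF-α library, against 0.135 CPM measured in the control. The counting interval of the ratio of TNF-α to control reached up to a fold of 0.709 on the counts as deposited. Even counts were in excess in this table, with 2172 genes at 2 counts and 618 at 1 count in the control library, the pattern of read pairs counted once per end. Counted as pairs, the 6 control counts come to 3, the interval then holds a fold of 1, and no fold is given.

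Dusp6 and Dusp10 stand for the other branches of the phosphatase family. Dusp6 (MKP-3), the cytoplasmic ERK phosphatase and the member most often used as a readout of ERK, lies on chromosome 10 (99263231 to 99267488). It had 2870 counts in the control and 3393 with TNF-α, or 64.4 and 63.6 CPM, a log2 ratio of -0.02 (95% interval -0.09 to 0.05). In fold terms the interval of Dusp6 runs from 0.939 to 1.04 on the counts as deposited. With all counts halved, as for read pairs, the interval of its log2 ratio runs from -0.12 to 0.08. Dusp10 (MKP-5), which prefers p38 and JNK over ERK, lies on chromosome 1 (184013302 to 184075636) and had 288 and 354 counts, or 6.46 and 6.63 CPM. Its log2 ratio was 0.04 (-0.19 to 0.27). The 4 compared phosphatases other than Dusp1 gave 111 CPM in the control and 108 CPM with TNF-α, a log2 ratio of -0.03 (-0.09 to 0.02), and with Dusp1 the 5 genes gave 134 and 145 CPM, a log2 ratio of 0.11 (0.07 to 0.16). The sum of the phosphatases was therefore higher with TNF-α through Dusp1.

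The 3 Sproutys and Spred1 had log2 ratios from -0.29 to -0.17, and for 3 of the 4 genes the counting interval lay below 0. Among all genes with at least 200 counts, 33.9% had an interval below 0. The ratios of the 4 genes were higher than in 19.7% (Spry1) to 29.5% (Spry2) of those genes. Spred1, a Sprouty-related inhibitor that brings neurofibromin to RAS, lies on chromosome 2 (117121374 to 117182279) and was the most counted of all 10 genes. It had 6773 counts in the control and 6805 with TNF-α, or 152 and 128 CPM, a fold of 0.839 (95% interval 0.811 to 0.868) and a log2 ratio of -0.25. Spred1 gave 75.2% of the counts of this group in the control and 74.5% with TNF-α, so its value dominates their sum.

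Spry2, the Sprouty with the highest level here, lies on chromosome 14 (105891949 to 105896819) and had 1586 and 1687 counts, or 35.6 and 31.6 CPM. Its log2 ratio was -0.17 (95% interval -0.27 to -0.07). Spry1, on chromosome 3 (37639947 to 37644598), had 432 and 424 counts, or 9.69 and 7.95 CPM. Its log2 ratio was -0.29 (-0.48 to -0.09). Spry1 shares 710 exonic bases with Gm42922 on the opposite strand, which had 34 and 91 counts, and since no strand setting is stated the reads of both cannot be told apart there. Spry4, on chromosome 18 (38586268 to 38601268), had 216 and 218 counts, or 4.85 and 4.09 CPM, a log2 ratio of -0.24 with an interval from -0.52 to 0.03 that holds 0. The 4 genes summed to 202 CPM in the control and 171 CPM with TNF-α, a log2 ratio of -0.24 (-0.28 to -0.20). The intervals of Spry1, Spry2 and Spred1 lay below 0, that of Dusp1 above 0, and those of the other 5 compared genes held 0. At this depth such intervals are narrow, and among all genes with at least 200 counts 34.3% had an interval above 0 and 33.9% one below 0, so 1 and 3 of 9 do not set the feedback genes apart. With all counts halved, as for read pairs, the numbers of feedback genes below, above and across 0 were again 3, 1 and 5, although the interval of Spry1 then reached -0.0062. The shares over all genes were computed on the counts as deposited only, so the halved numbers have no matching background.

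Levels of different genes were compared per kilobase of exon. In the control library the order from high to low was Dusp6 at 23.0 CPM per kb, Spred1 at 22.4, Spry2 at 17.1, Dusp4 at 11.99, Dusp1 at 8.66, Spry1 at 3.34, Dusp5 at 2.75, Dusp10 at 2.12, Spry4 at 1.06 and Dusp2 at 0.0672. The counting intervals of the neighbours Dusp6 and Spred1, and of Spry1 and Dusp5, overlapped, and those of the other neighbours did not. In the TNF-α library Dusp1, at 13.7 CPM per kb, stood above Dusp4 at 11.6 with intervals that did not overlap, the reverse of their control order. Every other gene kept its rank, and the overlapping neighbours were then Spry1 with Dusp5 and Dusp5 with Dusp10. Dusp6 lay above 88.5% of all compared genes per kilobase in the control library and above 88.2% with TNF-α.

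**Figure D2:**
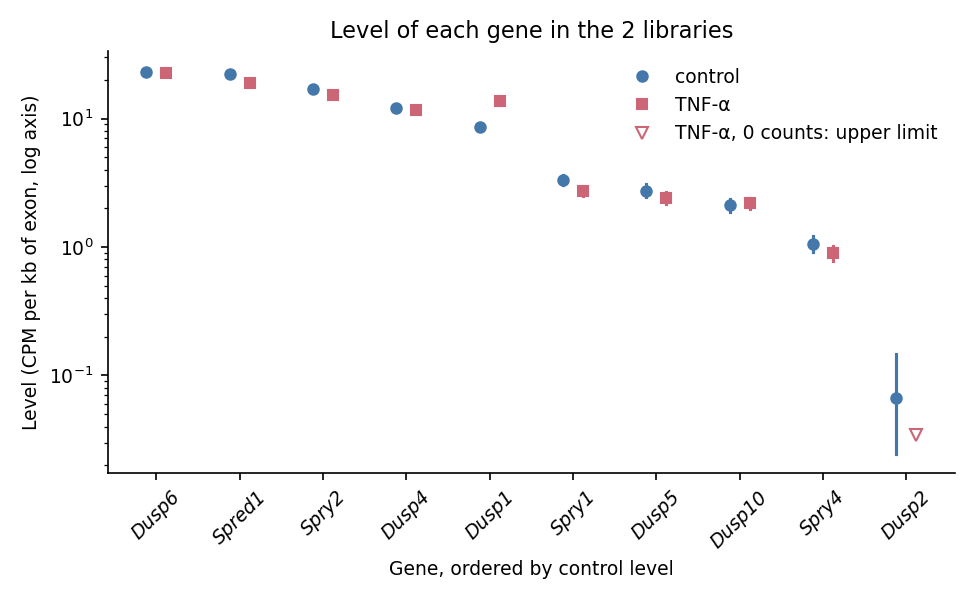
The level of each of the 10 genes (y axis, CPM per kb of exon, log axis) in the control library (circles) and the TNF-α library (squares), ordered by control level, with exact 95% Poisson intervals as bars and an open triangle for the upper limit of Dusp2 at 0 counts. Dusp1 moves from 8.66 to 13.7 and passes Dusp4.

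**Figure D3:**
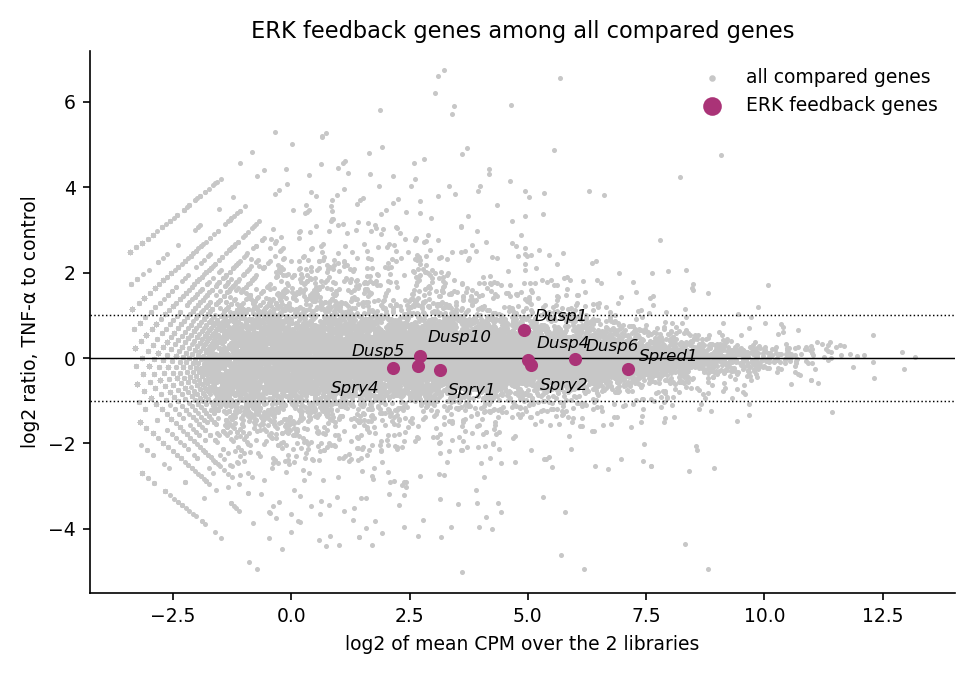
Log2 ratios of TNF-α over control (y axis) against the log2 of the mean CPM of both libraries (x axis) for the 20771 compared genes in grey and the 9 compared feedback genes in purple, with dotted lines at 2-fold. All 9 lie between the dotted lines, and Dusp1 at 0.66 is the highest.

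The DUSP family has 19 further genes in the table, of which 17 were compared, with 9 above and 8 below a log2 ratio of 0 and a median of 0.03. Past 2-fold were Dusp26 (2 counts in the control and 8 with TNF-α), Dusp13 (17 and 4) and Dusp23 (30 and 14), none with more than 44 counts in all. These are 17.6% of the 17 genes, near the 8.56% higher and 6.62% lower of all compared genes. With all counts halved the counting intervals of these 3 genes held 0, and of the 10 further genes with at least 200 counts 0 were past 2-fold. Among the other MAP kinase phosphatases, the ERK phosphatase Dusp7 had 559 and 751 counts, a log2 ratio of 0.17, and Dusp9, its rarely counted relative, had 16 and 38 counts, or a log2 ratio of 0.91 with a wide interval from 0.11 to 1.93, which held 0 once counts were halved (-0.27 to 2.39). The JNK and p38 phosphatases Dusp8 and Dusp16 had log2 ratios of 0.23 and -0.13. Of the atypical DUSPs, Dusp18 was at 0.95 (98 and 229 counts) and Dusp22 at -0.65 (1111 and 845 counts). The exons of Dusp8 and Dusp13 overlap genes on the opposite strand, so their counts are uncertain. Spred2 and Spred3, the other listed Spred genes, had log2 ratios of 0.17 (95% interval 0.05 to 0.29) and 0.03 (-0.25 to 0.32), and Spred3 shares 202 exonic bases with Ggn on the opposite strand. With counts halved both intervals held 0.

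Of 24 genes of the signaling chain from the receptors to ERK and the RSK kinases below it, 0 were past 2-fold, near the 4.01% higher and 2.87% lower among genes with at least 200 counts. They had a median log2 ratio of -0.07 and a range from -0.42 for the receptor gene Erbb3 to 0.67 for the RAF scaffold gene Ksr1, which overlaps a gene on the opposite strand. Of 19 other negative regulators, 1 was more than 2-fold lower and 0 higher, and the median was -0.11. This was Lrig1, which encodes a membrane protein that limits EGF receptor levels, with 9000 counts in the control and 5076 with TNF-α, a log2 ratio of -1.09 (95% interval -1.14 to -1.04). Lrig1 shares 144 exonic bases with Slc25a26 on the opposite strand. The highest of these 19 was the phosphatase gene Ptpn12 at 0.43. Of 20 JNK and p38 cascade genes, 1 was past 2-fold higher, where the share of all compared genes was 8.56%. This was Mapk11, which encodes p38β, with 100 and 281 counts, a log2 ratio of 1.22 (0.90 to 1.57). The lowest was Mapk12 at -0.27.

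Transcripts outside the feedback genes that are known to follow ERK did not move as a block. Of 20 such genes, 9 were above and 11 below a log2 ratio of 0, with a median of -0.04, and the highest was the EGF receptor ligand gene Hbegf at 0.64. The immediate early genes Fos and Egr1 were the 2 past 2-fold, both lower with TNF-α. Among all genes with at least 200 counts, 2.87% were more than 2-fold lower and 4.01% more than 2-fold higher. Fos had 11006 counts in the control and 4702 with TNF-α, a log2 ratio of -1.49 (95% interval -1.54 to -1.44). Egr1 had 4396 and 2533 counts. Its log2 ratio was -1.05, with an interval from -1.13 to -0.98 that reaches under 2-fold, and once corrected for GC content and length it was -0.98, no longer past 2-fold. Dusp1, itself an immediate early gene, thus differed in the opposite direction from Fos and Egr1 between the same libraries. Other immediate early genes of this list lay on both sides of 0, such as Egr3 at -0.54 and Myc at 0.57. Fos and Egr1 therefore do not stand for immediate early genes as a class.

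**Figure D4:**
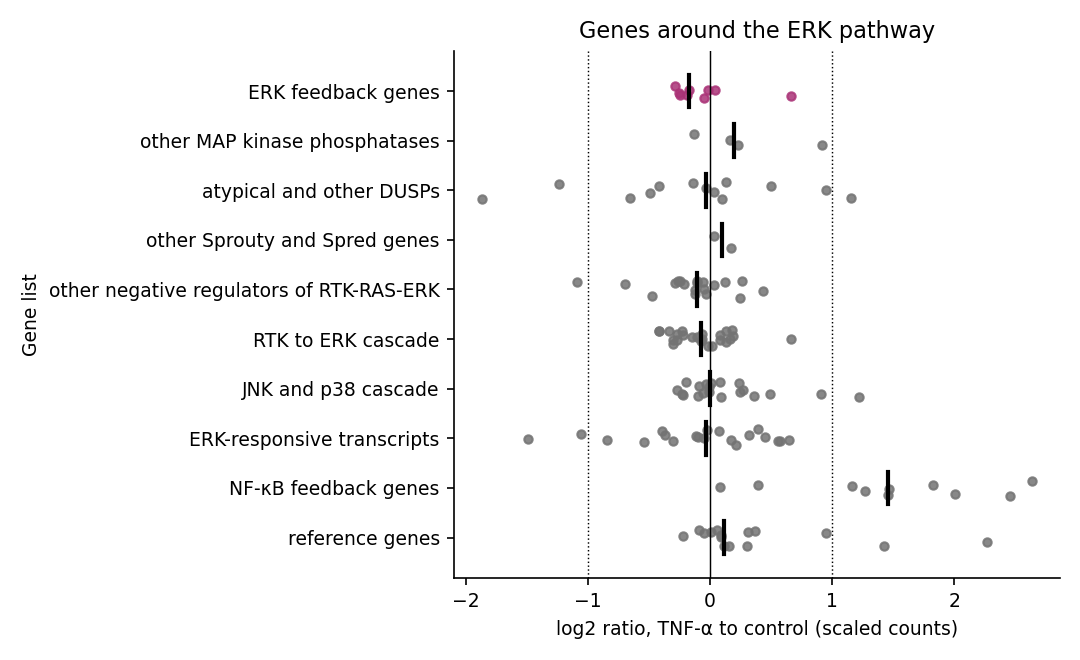
Log2 ratios of TNF-α over control (x axis) of each compared gene (points, spread vertically at random) in the feedback genes and 9 other gene lists (y axis), with black bars for list medians and dotted lines at 2-fold. The median is -0.17 for the feedback genes and 1.46 for the NF-κB feedback genes, whose points mostly lie right of the 2-fold line.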

How the data were processed

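RNA-seq was performed on colonies grown from sorted basal cells, with 1 library per condition, grouped by the treatment given in the labels. The authors deposited 1 table of raw read counts per gene with exon coordinates and summed exon length, and made it on GRCm38 (mm10) per the submitters' processing notes. The aligner, counting tool, annotation and strand setting are not given in the sources used here. The series title speaks of a microarray, but the values are sequencing counts. Of 47240 gene names shared with GENCODE M21, 90.9% had the same coordinates.

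Libraries were scaled with edgeR 4.0.16 (TMM, R 4.3.3), with a size of 1.20 for TNF-α relative to control, and log2 ratios of CPM were taken with a prior count of 2. At this scale 10 counts equal 0.224 CPM for the control and 0.187 CPM for TNF-α. Ratio intervals were Clopper-Pearson intervals of the TNF-α part of a gene's counts, and level intervals were Poisson. With 1 library per condition no quasi-likelihood fit was possible and no p-value is given, and a gene was called by a fold past 2. Scripts were tested on simulated data. Alternatives were total counts, DESeq2 1.42.0 size factors, upper quartile scaling, other filters, prior counts, halved counts, other folds, a binomial test on the reads, and a lowess correction on transcript GC content and exon length (statsmodels 0.14.6, span 0.3).

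The 10 genes, the lists and the naming rule were chosen with earlier results of these data known. The rule named all 10 genes and, of the other lists, the highest, the lowest and those past 2-fold, and allowed any DUSP, Sprouty or Spred gene. Krt5, Krt14, Myh11, Acta2, Cd3e, Egr3 and Myc were named after their values were seen. The reference genes, a list of 15, had a median log2 ratio of 0.11, with B2m (2.27) and Pgk1 more than 2-fold higher. Among genes with at least 200 counts that share was 4.01%. One gene that the rule names is not reported here.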

Additional observations from a re-analysis of the deposited data

How the results depend on the processing

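No paired analysis was possible because there was 1 library per condition, which also leaves no replicate to omit. The log2 ratios of the 9 compared feedback genes kept their sign and stayed within their counting intervals under all 9 alternatives of scaling, filter, prior count, halved counts and GC content with length (81 of 81 values). Most of these alternatives shift all genes nearly alike or hardly move well-counted genes, so their agreement says little. Only the correction for GC content and length shifts well-counted genes apart. None of them bears on the spread between cultures. Dusp1 ranged from 0.65 to 0.67 and the median of the 9 genes from -0.18 to -0.14. With a 1.5-fold threshold 1 gene, Dusp1, was higher. With no filter 1 gene, Dusp2, was more than 2-fold lower, since its 6 counts then enter. A 3-fold threshold and the added read test are stricter than 2-fold and could not raise the counts above 0. The correction for GC content and length moved the medians of the basal cell markers to 0.13, the luminal cell markers to -0.88 and the NF-κB feedback genes to 1.59, and the cause was not tested. It also took Egr1 to -0.98, Dusp9 to 1.004 and Gapdh to 1.03, across the 2-fold line, and a prior count of 5 took Dusp26 to 0.78. The medians of the other lists stayed between the median lower and the median upper interval limit of their genes, which is not an interval for the list median. Depth limits Dusp2, Spry4, Dusp5 and Dusp10 most, which have the fewest counts of the 10 genes.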
